A study of Mus musculus with 16 samples.

Results

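The insulin-like growth factor (IGF) genes described here are the 9 members Igf1, Igf2, Igf1r, Igfbp2, Igfbp3, Igfbp4, Igfbp5, Igfbp6 and Igfbp7, matched by gene name in a table of 49315 mouse genes measured by bulk RNA sequencing of intervertebral discs, the fibrocartilage joints between the vertebrae. All 9 were in the table, and 8 of them reached a level of 1 TPM, the share of a gene in its library's transcripts after correction for length, in at least 3 of the 16 libraries and were tested. Igfbp2 did not reach that level and is described by its values alone. Each library pooled the tissue of 4 tail discs from 1 mouse, cut away from the cartilage endplate.

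The mice were wild type with intact discs (3 mice), wild type with injured discs (4 mice), Adam8EQ with intact discs (4 mice) and Adam8EQ with injured discs (5 mice). Adam8 encodes a membrane metalloproteinase, and Adam8EQ is the labels' name for the mutant allele. The series title sets the mutant against DBA, an inbred mouse strain. The nature of the allele, the age and sex of the mice, and the method and time of the injury are not given in the sources used here. Each library came from its own mouse, so the p-values below measure the spread between mice. The numbers 1 to 5 only name the mice within a group.

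IGF1 and IGF2 are small secreted growth factors that act mainly through the receptor tyrosine kinase encoded by Igf1r, which signals through insulin receptor substrates, phosphoinositide 3-kinase and AKT. In extracellular fluid most IGF is held by binding proteins, which prolong its life, limit its access to the receptor and carry it to the matrix. Proteases that cut the binding proteins release the ligand. In cartilage and disc tissue IGF1 is known as a stimulus of proteoglycan synthesis and cell survival.

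The 2 members whose level changed past the threshold in these data, both with injury in Adam8EQ mice, were Igfbp3, which rose, and Igfbp6, which fell. Their promoters are shown because they are the only members called. The sequences are the 250 bases before the start site in RefSeq, on GRCm38.p6, written 5′ to 3′ on the strand of the gene. Igfbp3 lies on the minus strand and its window is chr11:7213924-7214173. Igfbp6 lies on the plus strand and its window is chr15:102143936-102144185. Capitals mark matches to TATAAA or TATATA, the letters of a TATA box, on either strand.
Igfbp3: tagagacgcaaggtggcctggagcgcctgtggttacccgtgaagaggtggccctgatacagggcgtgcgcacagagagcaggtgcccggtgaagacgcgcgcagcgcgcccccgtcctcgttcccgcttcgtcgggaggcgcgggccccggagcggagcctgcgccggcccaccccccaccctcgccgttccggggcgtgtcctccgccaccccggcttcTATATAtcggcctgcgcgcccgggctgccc
Igfbp6: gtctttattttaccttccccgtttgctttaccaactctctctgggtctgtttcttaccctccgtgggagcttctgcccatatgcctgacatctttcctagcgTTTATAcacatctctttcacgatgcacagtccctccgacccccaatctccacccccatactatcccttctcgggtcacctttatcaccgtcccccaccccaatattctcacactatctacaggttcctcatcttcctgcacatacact
The Igfbp3 window held TATATA starting 30 bases before the start site, and the Igfbp6 window held TTTATA, which is TATAAA on the other strand, starting 148 bases before it. Searched on both strands from 250 bases before to 50 bases after the start, TATATA was found in 5.671% and TATAAA in 13.62% of all 32851 mouse promoters of that length. The GC content of that longer window was 71.7% for Igfbp3 and 49.7% for Igfbp6. Of the other members' promoters, 1 held TATAAA, that of Igfbp4, 28 bases before the start. The letters GGGCGG, a GC box, were in the windows of Igfbp2, Igfbp7, Igf1r and Igf2 and in 35.66% of all promoters. These motifs were chosen after the sequences had been seen, and a match is a description only.

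The members lie on 6 chromosomes in the GENCODE M21 annotation of GRCm38. Igfbp2 (chr1:72824503-72852474, plus strand) and Igfbp5 (chr1:72857932-72874884, minus strand) are neighbours, with 5457 bases between them. Igfbp3 (chr11:7206086-7213923, minus strand) lies 3539 bases from Igfbp1, the gene of a liver binding protein that was listed at 0 TPM in all 16 libraries. Igfbp4 is at chr11:99041244-99054392 and Igfbp6 at chr15:102144362-102149511, both on the plus strand. GENCODE thus starts Igfbp6 downstream of RefSeq, whose first base is 102144186, so the Igfbp6 window shown above holds for the RefSeq start. For Igfbp3 both annotations start at the same base, 7213923. Igf1r spans chr7:67952827-68233668 on the plus strand. Igf2 (chr7:142650766-142666816, minus strand) shares sequence with Gm49394 on the same strand and with the antisense transcript Igf2os. Igf1 (chr10:87858265-87937042, plus strand) is crossed by the antisense transcript Igf1os, and Igfbp7 (chr5:77349240-77408041, minus strand) overlaps Polr2b and Gm34648 on the other strand. Whether the authors' counting used strand is not given in the sources used here, so the values of Igf1, Igf2 and Igfbp7 are uncertain to that extent. Strand cannot part Igf2 from Gm49394, which lies on the same strand. Polr2b stood at 56.9 to 73.0 TPM over the libraries, against 818 to 2421 TPM for Igfbp7. Igf2os stayed at or under 0.470 TPM and Igf1os at or under 2.89 TPM in every library.

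The TPM values imply between 10218485 and 24875953 reads counted over genes per library. The 4 wild-type injured libraries were unlike each other. Adam8 stood at 3.52 TPM in mouse 1, 5.59 TPM in mouse 2, 66.3 TPM in mouse 3 and 54.9 TPM in mouse 4, against 1.24 to 1.69 TPM in the 3 wild-type intact mice. In the Adam8EQ mice Adam8 ranged from 0.956 to 2.97 TPM in intact and from 16.2 to 264 TPM in injured discs. Its level does not check the allele. Disc and cartilage markers summed to between 4976 and 19736 TPM over the 16 libraries, so markers of the labelled tissue were present, while Matn1 of that list and the notochordal genes Shh and Noto stayed under 1 TPM in every library. The Adam8EQ libraries carry names that begin with A8 or with M, 2 of each in the intact and 2 and 3 in the injured group, and all wild-type names begin with D. What these names mark is not given in the sources used here, so they are called library names below. The names of wild-type injured mice 1 and 2 end in consecutive numbers, and so do those of mice 3 and 4, after a gap. Whether these 2 pairs differ in more than the spread between mice cannot be told from the names.

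Igfbp7 was the most abundant member in every library. TPM is corrected for transcript length, so levels can be compared between genes. Mean levels in wild-type intact discs were 1959 TPM ± 317 (SD, n = 3) for Igfbp7, 312 ± 80.9 for Igfbp6, 238 ± 37.5 for Igfbp5, 86.9 ± 4.40 for Igf1r, 54.1 ± 11.2 for Igfbp4, 19.5 ± 5.28 for Igf2, 1.75 ± 0.436 for Igf1 and 0.372 ± 0.447 for Igfbp3. Neighbours in that order did not overlap, except Igfbp6 with Igfbp5 and Igfbp3 with Igfbp2. In the intact Adam8EQ discs the order was the same, and there Igfbp6 overlapped with Igfbp5, Igf1r with Igfbp4 and Igf1 with Igfbp3. In injured wild-type discs Igfbp5 was above Igfbp6 in 4 of 4 libraries. In injured Adam8EQ discs it was above Igfbp6 in 2 of 5 libraries, with medians of 220.0 TPM for Igfbp5 and 229 TPM for Igfbp6.

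**Figure D1:**
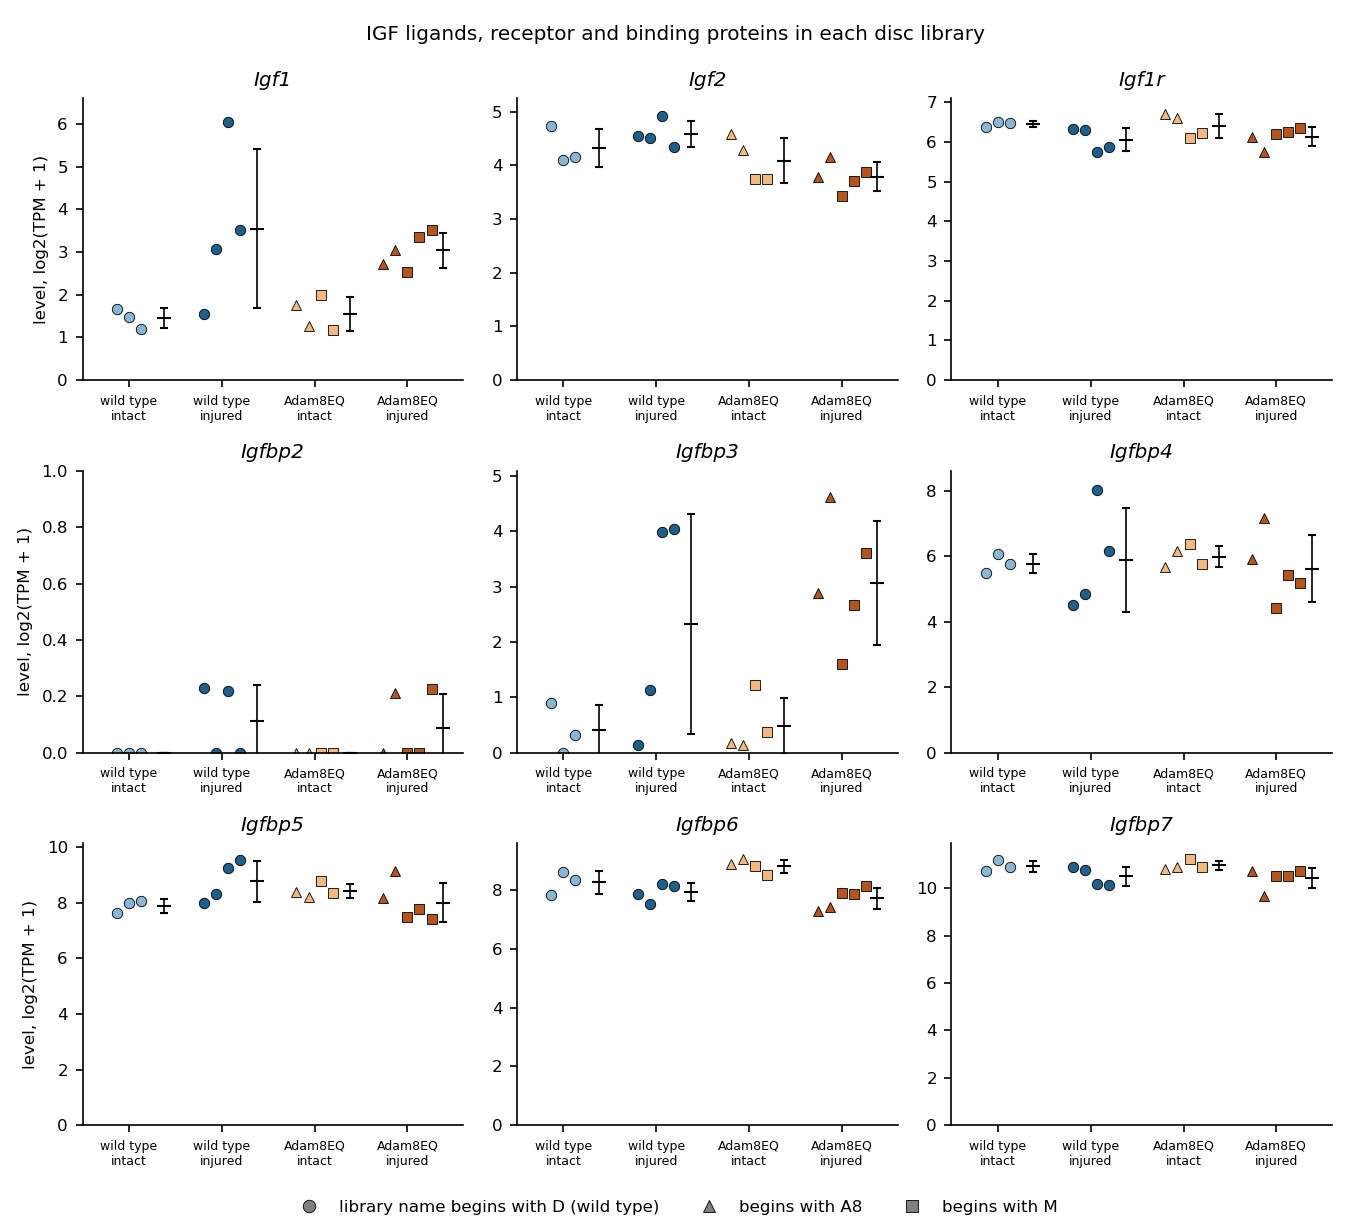
Level of each of the 9 members, as log2(TPM + 1), in each of the 16 disc libraries (points) by genotype and injury, with the mean and SD of each group beside them; marker shape gives the start of the library name. In the injured Adam8EQ mice all 5 Igfbp3 points lie above and all 5 Igfbp6 points below the 4 intact ones, and Igfbp2 is at or near 0 throughout.

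Igf1, the gene of the ligand that mediates much of the action of growth hormone, was low in intact discs and higher in most injured ones. In wild-type mice it stood at 2.16, 1.81 and 1.29 TPM in the intact discs and at 1.94, 7.44, 65.0 and 10.5 TPM in injured mice 1 to 4. Mouse 1 lay within the intact range and mouse 3 far above all others. In Adam8EQ mice it stood at 2.41, 1.40, 2.95 and 1.25 TPM in intact and at 5.65, 7.31, 4.82, 9.25 and 10.5 TPM in injured discs, so the groups did not overlap. The difference between injured and intact discs was 2.10 ± 0.75 (log2(TPM + 1), ± SE here and below) in wild type, with an adjusted p of 0.177 by limma, and 1.495 ± 0.66 in Adam8EQ mice, with an adjusted p of 0.0749. The threshold was an adjusted p of 0.05, over all 24188 genes tested. In the Adam8EQ comparison the adjusted p was 0.00457 when only those 9 mice were fitted and 0.00603 without wild-type injured mouse 3, whose value enters the spread shared by all groups. Without wild-type injured mouse 1 the wild-type change was 2.76 ± 0.62 (adjusted p = 0.0377) and the adjusted p in Adam8EQ mice was 0.0275. These were the only alternatives that passed, 3 in Adam8EQ mice and 1 in wild type. Under 25 others in each genotype Igf1 did not pass. The limma adjusted p reached 0.408 in Adam8EQ mice and 0.483 in wild type. Markers of several other cell types were high in wild-type injured mouse 3. The macrophage list summed to 3734 TPM there, against 141 to 169 TPM in wild-type intact discs. The endothelial list summed to 206 TPM against 8.73 to 22.1 TPM. The fibroblast list summed to 13599 TPM there, the highest of the 16 libraries, against 1976 to 2568 TPM in wild-type intact discs, and the mural and adipocyte lists were also highest there, at 844 and 34.2 TPM. The highest macrophage sum, 7406 TPM in Adam8EQ injured mouse 2, went with an Igf1 level of 7.31 TPM. Their part in the Igf1 level was not tested. In bulk tissue, more cells of a type and more RNA per cell cannot be told apart.

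Igf2, the gene of the fetal growth factor that is expressed from the paternal allele, ranged from 9.73 to 29.4 TPM over the 16 libraries. It stood at 25.6, 16.1 and 16.7 TPM in wild-type intact and 22.4, 21.9, 29.4 and 19.3 TPM in wild-type injured discs. In Adam8EQ mice it stood at 23.0, 18.5, 12.3 and 12.4 TPM in intact and 12.7, 16.9, 9.73, 12.1 and 13.7 TPM in injured discs. Every injured Adam8EQ mouse lay below every injured wild-type mouse. That difference between the genotypes was -0.80 ± 0.22, with a limma adjusted p of 0.0736, which missed the threshold. It passed without Adam8EQ injured mouse 2, at -0.89 ± 0.22 and an adjusted p of 0.0421, and by limma-voom on reads inferred from the TPM. Under the 26 other alternatives it did not pass, with a limma adjusted p of up to 0.254. The change with injury was 0.26 ± 0.25 in wild type (adjusted p = 0.581) and -0.30 ± 0.22 in Adam8EQ mice (adjusted p = 0.297). The difference between these changes was -0.56 ± 0.33, with an adjusted p of 0.671 and a 95% interval of -1.23 to 0.11. Among the intact Adam8EQ mice, the 2 with A8 names had 18.5 and 23.0 TPM and the 2 with M names 12.3 and 12.4 TPM.

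Igf1r, the gene of the shared receptor, had group means between 66.8 and 86.9 TPM. It stood at 81.9, 90.1 and 88.8 TPM in wild-type intact and 78.9, 78.4, 52.7 and 57.2 TPM in wild-type injured discs, and these groups did not overlap. In Adam8EQ mice it stood at 104, 95.8, 67.3 and 73.5 TPM in intact and 68.8, 52.7, 72.5, 75.3 and 80.7 TPM in injured discs. The change was -0.40 ± 0.19 in wild type, with a limma adjusted p of 0.285, and -0.27 ± 0.17 in Adam8EQ mice, with an adjusted p of 0.218. The library names divided the mutants. With the A8-named mutants alone the change was -0.72 ± 0.23 (adjusted p = 0.0490), and with the M-named mutants alone it was 0.11 ± 0.18 (adjusted p = 0.707).

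Of the 8 members tested, 2 passed the threshold with injury in Adam8EQ mice, 1 higher and 1 lower. Of all 24188 genes tested in that comparison 30.8% passed, 13.1% higher and 17.7% lower, so the members' counts are near that background. With injury in wild type 0 of 8 members passed the limma test against 0.116% of all genes. An unadjusted limma p under 0.05 was found for 4 members and for 4155 of all 24188 genes. Limma-voom on reads inferred from the TPM called 0 members and 4 of 24091 genes. The median change of the 8 members was 0.19 in wild type, against 0.009 over all genes, and -0.33 in Adam8EQ mice, against -0.08 over all genes.

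**Figure D2:**
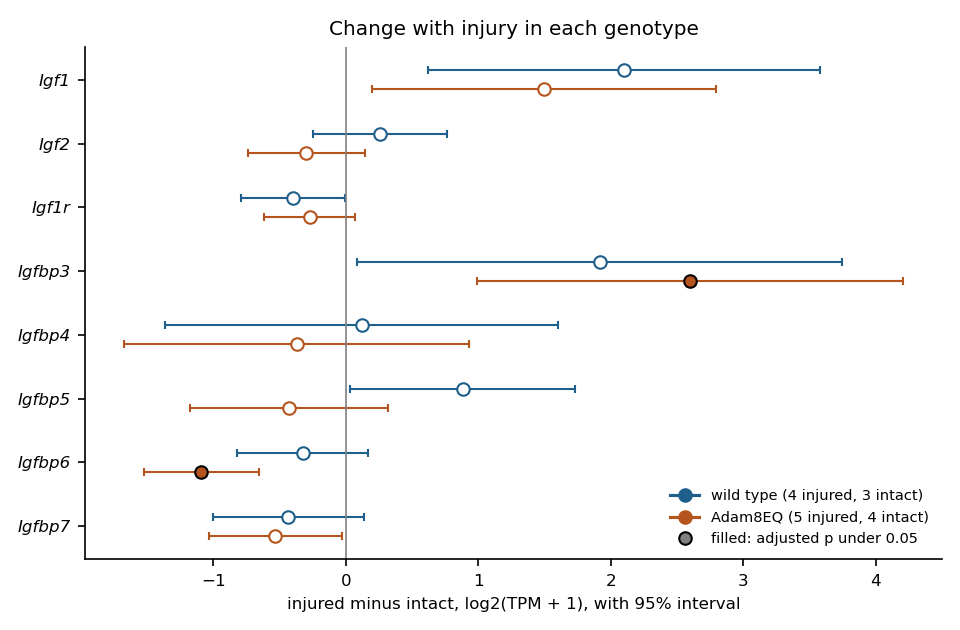
Change of each of the 8 tested members with injury, as injured minus intact on the log2(TPM + 1) scale with its 95% interval, in wild-type (blue) and Adam8EQ (orange) mice; filled points have an adjusted p under 0.05. Igfbp3 (2.60) and Igfbp6 (-1.09) in Adam8EQ mice are the filled points.

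Igfbp3, the gene of the main carrier of IGF in blood, also made by fibroblasts and endothelial cells, rose with injury in Adam8EQ discs. It was nearly absent from their intact discs, at 0.129, 0.101, 1.32 and 0.297 TPM in mice 1 to 4, which corresponds to between 1 and 14 reads. In the injured discs it stood at 6.34, 23.5, 2.05, 5.32 and 11.1 TPM, or 21 to 250 reads, and every injured mouse lay above every intact one. The change was 2.60 ± 0.82 on the log2(TPM + 1) scale, 6.05-fold on that scale, with a limma adjusted p of 0.0182. The pseudocount of 1 understates the change of so low a gene: with a pseudocount of 0.1 it was 4.17 ± 1.29 (adjusted p = 0.0169).

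The Igfbp3 call was not held by every setting. Without intact Adam8EQ mouse 2 the change was 2.48 ± 0.93 (adjusted p = 0.0501), and by limma-voom on the inferred reads it was 4.29 ± 1.96 (adjusted p = 0.0668). Both library names kept the direction, at 3.59 ± 1.41 for the A8-named (adjusted p = 0.0727) and 1.83 ± 1.24 for the M-named mutants (adjusted p = 0.322). In wild type Igfbp3 stood at 0.868, 0 and 0.248 TPM in intact and 0.102, 1.18, 14.8 and 15.4 TPM in injured discs. Injured mice 1 and 2 were within or near the intact range and mice 3 and 4 were far above it. The wild-type change was 1.92 ± 0.94, with an adjusted p of 0.275. The difference between the changes in the 2 genotypes was 0.68 ± 1.25, with an adjusted p of 0.893 and a 95% interval of -1.76 to 3.12, so a difference between the genotypes was not shown. In injured discs the genotypes differed by 0.75 ± 0.82 (adjusted p = 0.606).

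Markers of several cell types rose with injury in the same Adam8EQ discs. In Adam8EQ discs 6 of 7 macrophage markers, 4 of 5 tested neutrophil markers and 5 of 7 fibroblast markers rose with injury, where 13.1% of all genes rose, and 0 of 6 endothelial markers passed. The summed fibroblast list ranged from 2739 to 4205 TPM in intact and from 6582 to 10757 TPM in injured Adam8EQ discs. The summed macrophage list ranged from 129 to 215 TPM and from 737 to 7406 TPM, the neutrophil list from 1.68 to 2.55 TPM and from 13.4 to 1005 TPM, and the endothelial list from 5.98 to 14.9 TPM and from 13.3 to 75.5 TPM. No gene of these 4 lists was under 1 TPM in every library. Among the injured Adam8EQ mice, mouse 2 had the highest Igfbp3 level, 23.5 TPM, and the highest macrophage, neutrophil and endothelial sums. Mouse 5 came next for Igfbp3, at 11.1 TPM, with the lowest macrophage and neutrophil sums and the highest fibroblast sum. The part of these cell types in the rise of Igfbp3 was not tested.

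The genes whose profile over the 16 libraries was most like that of Igfbp3, among the 11937 genes that averaged 5 TPM or more, were Sema7a, a membrane-anchored semaphorin, and Nrp1, a receptor for semaphorins and VEGF. The root-mean-square difference between the centred log2 profiles was 0.51 for Sema7a and 0.56 for Nrp1, against a spread of 1.58 of Igfbp3 around its own mean. Sema7a averaged 0.809 ± 0.542 TPM (SD, n = 4) in intact and 15.8 ± 9.56 TPM (SD, n = 5) in injured Adam8EQ discs.

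Igfbp6, the gene of the binding protein with a preference for IGF2, fell with injury in Adam8EQ discs. It stood at 466, 524, 454 and 363 TPM in intact and at 155, 171, 238, 229 and 281 TPM in injured discs, so every injured mouse lay below every intact one. The change was -1.09 ± 0.22, or 0.470-fold, with a limma adjusted p of 0.0019. Within each library name the ranges were also apart, 466 to 524 against 155 to 171 TPM in A8-named and 363 to 454 against 229 to 281 TPM in M-named mice. With the M-named mutants alone the change was -0.71 ± 0.27 and the adjusted p 0.126. In wild type it stood at 227, 388 and 322 TPM in intact and 232, 183, 296 and 281 TPM in injured discs, with overlapping ranges and a change of -0.32 ± 0.25 (adjusted p = 0.478).

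The difference between the Igfbp6 changes in the 2 genotypes was -0.77 ± 0.33. Its limma adjusted p was 0.549, at an unadjusted p of 0.025. In injured discs the genotypes overlapped in range, while the intact Adam8EQ mean of 452 ± 66.5 TPM (SD, n = 4) was above the wild-type 312 ± 80.9 TPM (SD, n = 3), a difference of 0.55 ± 0.25 (adjusted p = 1). A few markers on several lists also fell in Adam8EQ discs, where 17.7% of all genes fell. Counts this small cannot be set apart from that background. Of 6 tested disc and cartilage markers 2 fell, Comp, a matrix protein gene, from 3449 to 3849 TPM in intact to 251 to 1324 TPM in injured discs, and Cnmd, the chondromodulin gene, from 599 to 718 TPM to 8.15 to 172 TPM, while 1, Hapln1, rose. Of 5 tested notochordal markers 2 fell, Krt8 and Krt19, and that list summed to between 1543 and 2675 TPM in intact and between 535 and 1780 TPM in injured discs, with overlap. The osteoblast marker Alpl, 1 of 4 tested, fell from 22.1 to 43.4 TPM to 3.95 to 15.1 TPM. Of 5 mural markers 1 fell, Myh11, from 16.8 to 20.8 TPM to 1.51 to 10.5 TPM. The other mural markers did not pass: Rgs5 and Cspg4 had higher means in injured discs, and Pdgfrb and Acta2 lower ones. The mural list summed to between 347 and 553 TPM in intact and between 335 and 603 TPM in injured discs, with overlap. The part of these markers in the fall of Igfbp6 was not tested. The genes most like Igfbp6 in profile were Boc, a receptor of hedgehog signalling, at a root-mean-square difference of 0.26, and Rflnb, a filamin-binding protein, at 0.27, against a spread of 0.51 of Igfbp6 around its own mean. Rflnb averaged 77.0 ± 9.0 TPM (SD, n = 4) in intact and 34.7 ± 5.02 TPM (SD, n = 5) in injured Adam8EQ discs.

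Igfbp5, the gene of a binding protein that attaches to matrix and bone mineral, had a higher mean in injured wild-type and a lower mean in injured Adam8EQ discs than in the intact ones, and neither difference passed the threshold. It stood at 195, 251 and 266 TPM in wild-type intact and at 253, 317, 602 and 743 TPM in wild-type injured discs, a change of 0.88 ± 0.44 (limma adjusted p = 0.278). Mouse 1 was within the intact range. In Adam8EQ mice it stood at 330, 294, 441 and 323 TPM in intact and at 285, 562, 180, 220 and 168 TPM in injured discs, a change of -0.43 ± 0.38 (adjusted p = 0.378). The 3 injured M-named mice were the lowest of the 16 libraries but for wild-type intact mouse 1, and A8-named mouse 2 was above all intact mutants. With the A8-named mutants alone the change had the other sign, 0.36 ± 0.56 (adjusted p = 0.649). The difference between the changes in the 2 genotypes was -1.31 ± 0.58, with an adjusted p of 0.554 and an unadjusted p of 0.026. In injured discs the mutants were lower by -0.77 ± 0.38 (adjusted p = 0.232), and in intact discs higher by 0.54 ± 0.44 (adjusted p = 1) with ranges that did not overlap.

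Igfbp4, the gene of a binding protein that restrains IGF action until it is cut by pappalysin, spread widely between injured mice. In wild type it stood at 43.5, 65.8 and 52.9 TPM in intact and at 21.7, 28.0, 256 and 70.9 TPM in injured discs. Injured mice 1 and 2 lay below the intact range and mice 3 and 4 above it. In Adam8EQ mice it stood at 50.2, 69.8, 81.8 and 52.9 TPM in intact and at 58.8, 141, 20.4, 42.2 and 35.6 TPM in injured discs, where the 3 M-named mice lay below and 1 of the 2 A8-named mice above the intact range. The changes were 0.12 ± 0.77 (limma adjusted p = 0.946) in wild type and -0.37 ± 0.67 (adjusted p = 0.684) in Adam8EQ mice. Without wild-type injured mouse 3 the wild-type change was -0.59 ± 0.61.

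Igfbp7, the gene of a secreted protein with weak affinity for IGF that is laid down around vessels and in matrix, was lower in every injured than in every intact Adam8EQ mouse. It stood at 1772, 1903, 2421 and 1896 TPM in intact and at 1671, 818, 1459, 1452 and 1676 TPM in injured discs. The change was -0.53 ± 0.23 (limma adjusted p = 0.0993), and by limma-voom on the inferred reads it passed, at -0.57 ± 0.21 (adjusted p = 0.0357). In wild type it stood at 1691, 2309 and 1876 TPM in intact and at 1898, 1747, 1167 and 1105 TPM in injured discs, a change of -0.43 ± 0.26 (adjusted p = 0.407). Mice 3 and 4 were below the intact range and mice 1 and 2 within it.

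Igfbp2, which codes for an IGF2-preferring binding protein abundant in fetal tissues, was listed at 0 in 12 libraries, among them all 7 intact ones. The other libraries were injured, wild-type mice 1 and 3 and Adam8EQ mice 2 and 5, with at most 0.173 TPM, the value of 1 read in each. Expression of Igfbp2 was not detectable at this depth beyond single reads.

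Igfbp7 held the largest share of the binding protein transcripts in all 16 libraries, as the plot of their make-up shows. Of the summed TPM of the 6 binding proteins, Igfbp7 held 76.5% ± 1.93 (SD, n = 3) in wild-type intact discs and 69.8% ± 2.14 (SD, n = 4) in Adam8EQ intact discs, with ranges of 74.5% to 78.4% and 67.7% to 71.9%. In injured discs its share was 63.9% ± 16.1 (SD, n = 4) in wild type and 70.6% ± 12.9 (SD, n = 5) in Adam8EQ mice. The spread came from 3 libraries. Igfbp7 held 49.96% in wild-type injured mouse 3, 49.9% in wild-type injured mouse 4 and 47.7% in Adam8EQ injured mouse 2, where Igfbp5 held 25.8%, 33.5% and 32.7%. In the 13 other libraries Igfbp7 held at least 67.7% and Igfbp5 at most 13.9%. Those 3 libraries also had the 3 highest neutrophil marker sums, 185, 138 and 1005 TPM against at most 88.6 TPM elsewhere, and the 3 highest endothelial marker sums, 206, 74.0 and 75.5 TPM against at most 35.4 TPM elsewhere. The other marker lists did not set these 3 libraries apart. The macrophage list summed to 2380 TPM in wild-type injured mouse 4, below 2552 TPM in Adam8EQ injured mouse 4. The fibroblast list summed to 6415 TPM in wild-type injured mouse 4 and 7861 TPM in Adam8EQ injured mouse 2, below 10757 TPM in Adam8EQ injured mouse 5. The part of these cell types in the shares was not tested. These shares were read after the values had been seen and carry no test.

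**Figure D3:**
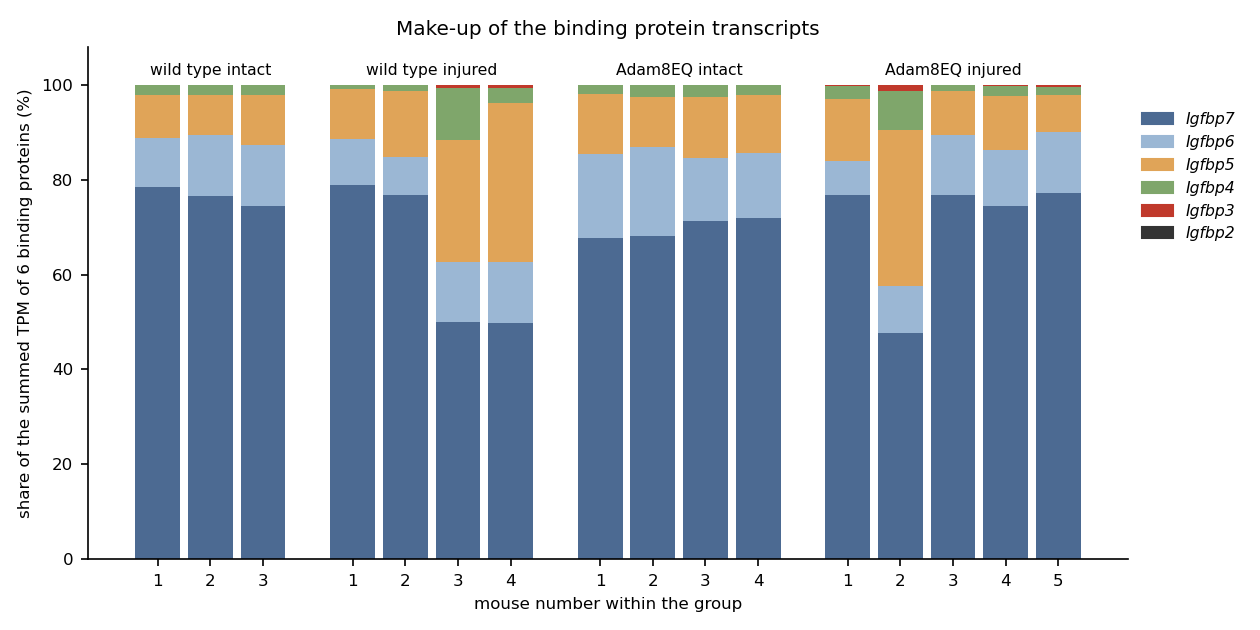
Share of each of the 6 binding protein genes in their summed TPM (percent, stacked to 100) in each library, by group and mouse number. Igfbp7 fills 67.7% or more of 13 bars and close to 50% of the bars of wild-type injured mice 3 and 4 and Adam8EQ injured mouse 2.

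The summed TPM of the 6 binding proteins was 2861 ± 367 (SD, n = 4) in intact and 1982 ± 195 (SD, n = 5) in injured Adam8EQ discs, with the highest injured mouse at 2175 TPM and the lowest intact mouse at 2618 TPM. In wild type the sums were 2563 ± 430 (SD, n = 3) in intact and 2308 ± 80.9 (SD, n = 4) in injured discs, and the ranges overlapped. The sum over members carries no test.

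Between genotypes 0 of 8 members passed the limma test in intact discs, where 0.0165% of all genes did, and 0 of 8 in injured discs, where 0.918% did. At an unadjusted p under 0.05 there was 1 member in intact discs, Igfbp6, and there were 2 in injured discs, Igf2 and Igfbp5. Of all 24188 genes 915 in intact and 4912 in injured discs had such a p. Limma-voom called 0 and 1 members, the latter Igf2, at -0.87 ± 0.23 and an adjusted p of 0.0454. It called 4 and 557 of 24091 genes. For the difference between the injury changes of the 2 genotypes 0 members passed, as did 0% of all genes (1979 of which had an unadjusted p under 0.05), and Igfbp5 and Igfbp6 had an unadjusted p under 0.05. Limma-voom also called 0 members there. The median member difference between genotypes was 0.08 in intact discs, against -0.01 over all genes, and -0.24 in injured discs, against -0.09.

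Beyond the members, 49 other genes of the IGF system were counted, of which 43 were tested. With injury in Adam8EQ mice 8 rose and 9 fell, beside the background of 13.1% and 17.7% of all genes. With injury in wild type 1 passed, Adam12, where 0.116% of all genes passed, 13 had an unadjusted p under 0.05, and limma-voom called 0. Between genotypes 0 passed in intact discs, where 3 had an unadjusted p under 0.05 and limma-voom called 0. In injured discs 1 passed, Grb10, where 0.918% of all genes passed, 11 had an unadjusted p under 0.05, and limma-voom called 2. For the difference between the injury changes 0 passed, 5 had an unadjusted p under 0.05, and limma-voom called 0. Of all 24188 genes, 4155 had an unadjusted limma p under 0.05 with injury in wild type. Between genotypes 915 did in intact and 4912 in injured discs, and 1979 for the difference between the injury changes. In these 4 comparisons limma-voom called 4, 4, 557 and 0 of 24091 genes. The median change of the 43 genes with injury was 0.02 in wild type and -0.001 in Adam8EQ mice.

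Of 6 tested proteases that cut binding proteins and the stanniocalcins that inhibit pappalysins, 3 rose and 1 fell with injury in Adam8EQ discs, where 13.1% of all genes rose and 17.7% fell. The 1 lower gene of 6 is near that background. Adam12, a metalloproteinase that cuts the proteins of Igfbp3 and Igfbp5, stood at 0.654 to 1.48 TPM in the 4 intact mice and at 54.4, 33.1, 39.9, 18.0 and 29.0 TPM in the injured ones, a change of 4.08 ± 0.48 (limma adjusted p = 1.7e-04). In wild type it stood at 0.803, 1.61 and 0.550 TPM in intact and 6.18, 13.3, 49.5 and 23.1 TPM in injured discs, a change of 3.28 ± 0.54 (adjusted p = 0.0267), so it was above the intact range in all 9 injured mice. The wild-type call was lost under 9 alternatives, among them a fit of the wild-type mice only (adjusted p = 0.197) and leaving out any 1 of the 3 intact mice (adjusted p up to 0.121).

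Pappa, the pappalysin that cuts the Igfbp4 protein, stood at 11.5, 10.2, 12.3 and 9.83 TPM in intact and 46.5, 26.0, 50.4, 31.7 and 26.0 TPM in injured Adam8EQ discs, and rose by 1.58 ± 0.37 (adjusted p = 0.0042). Adam9 rose by 0.97 ± 0.18 (adjusted p = 0.0015). Htra1, a secreted serine protease of cartilage matrix, stood at 1482, 1620.2, 995 and 1308 TPM in intact and at 323, 511, 623, 858 and 694 TPM in injured discs, a change of -1.21 ± 0.29 (adjusted p = 0.0052). These 4 genes did not overlap in range between injured and intact mutants. They were named because they passed the test, so this adds no separate support. The fibroblast and macrophage marker sums given above for Igfbp3 were also higher in injured than in intact Adam8EQ discs, and their part was not tested.

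**Figure D4:**
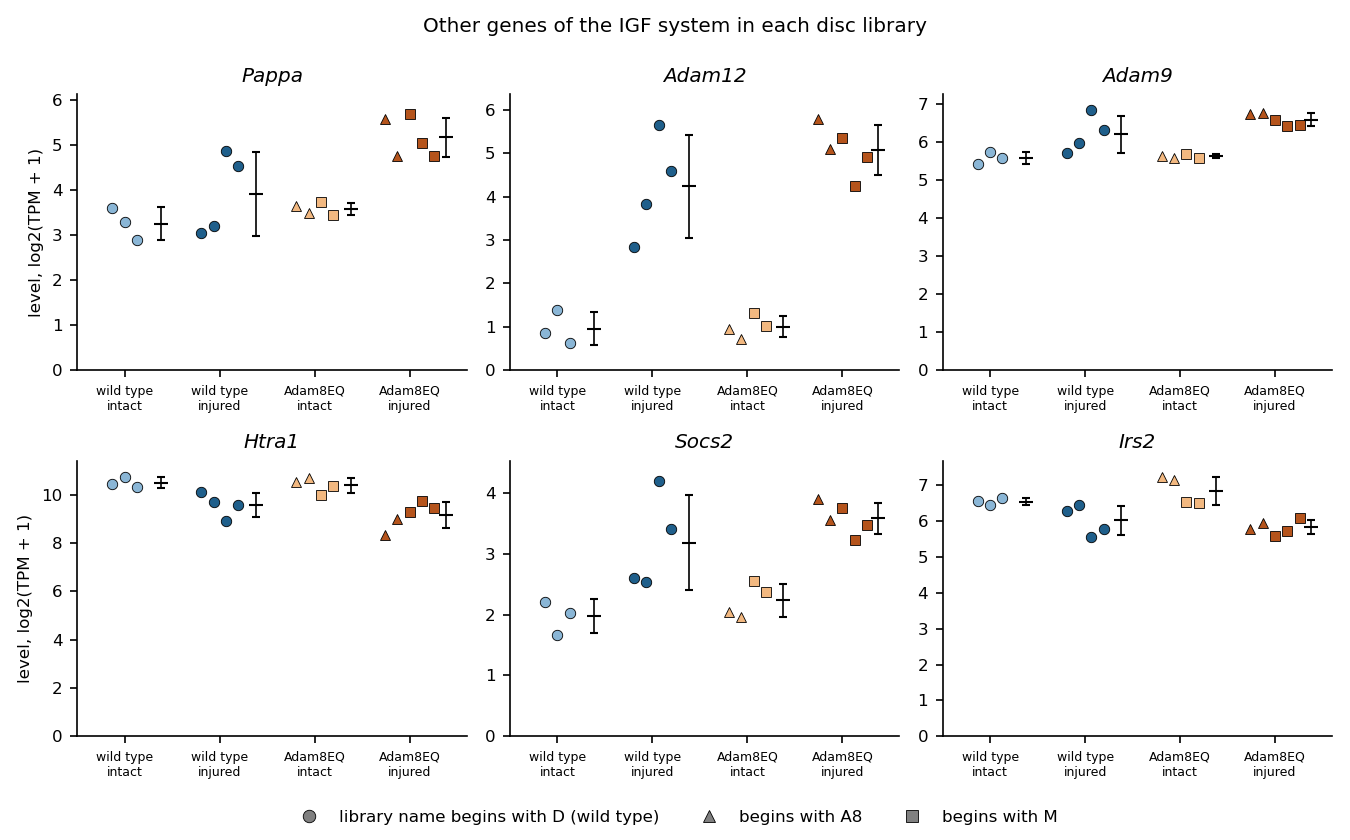
Level of 6 other genes of the IGF system, as log2(TPM + 1), in each of the 16 disc libraries (points) with the mean and SD of each group beside them; marker shape gives the start of the library name. Adam12 lies above the intact range in all 9 injured mice, and Htra1 and Irs2 lie lower in injured than in intact Adam8EQ mice.

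Among 4 tested receptors and carriers, 0 rose and 2 fell with injury in Adam8EQ discs, and of 5 genes of the growth hormone axis 2 rose and 0 fell. With 30.8% of all genes called in this comparison, 13.1% higher and 17.7% lower, counts this small cannot be set apart from the background. Insr, the insulin receptor gene, fell from a mean of 35.2 to 26.1 TPM (-0.43 ± 0.11, adjusted p = 0.0148), and Kazald1, an IGF binding protein-related gene, from 31.0 to 20.3 TPM (-0.60 ± 0.14, adjusted p = 0.0057). Of the growth hormone axis, Socs2, a feedback inhibitor of growth hormone signalling, rose from 3.77 to 11.1 TPM (1.34 ± 0.30, adjusted p = 0.0043) and the kinase gene Jak2 from 58.2 to 82.5 TPM (0.47 ± 0.14, adjusted p = 0.0179). Of 3 Igf2 mRNA binding protein genes and H19, the imprinted neighbour 72622 bases from Igf2, Igf2bp2 rose by 1.13 ± 0.16 (adjusted p = 7.9e-04) and Igf2bp3 fell by 0.84 on the log2 scale (SE 0.15, adjusted p = 0.0025). H19 is named after its values were seen: it did not pass in either genotype, at 6.87, 5.70 and 1.80 TPM in intact and 16.9, 16.9, 99.6 and 64.3 TPM in injured wild-type discs. In Adam8EQ mice its ranges overlapped, from 1.83 to 7.23 TPM in intact and from 3.48 to 57.7 TPM in injured discs.

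Of 24 genes inside the cell, from the receptor substrates to mTOR, 2 rose and 5 fell with injury in Adam8EQ discs, where 13.1% of all genes rose and 17.7% fell, so the list as a whole was near the background. It had a median change of -0.04 against -0.08 over all genes. Irs2, a substrate of the IGF1 and insulin receptors, stood at 149, 140.1, 91.1 and 89.3 TPM in intact and at 53.7, 61.3, 47.4, 52.3 and 67.5 TPM in injured discs, a change of -1.02 ± 0.21 (adjusted p = 0.0022) with no overlap. Pik3r2, a regulatory subunit of phosphoinositide 3-kinase, changed by -0.59 ± 0.16 (adjusted p = 0.0111), and Foxo4, a transcription factor that AKT restrains, by -0.56 ± 0.17 (adjusted p = 0.0202). Without any 1 of intact mice 1, 2 and 4 the adjusted p of Foxo4 was 0.0515 to 0.0698. Mtor changed by 0.48 ± 0.12 (adjusted p = 0.0092). With the M-named mutants alone, 12 of the 14 called genes named above from these lists for that comparison lost the call and kept their direction. With the A8-named mutants alone 4 lost it, Pappa, Igf2bp2, Pik3r2 and Mtor, of which Igf2bp2 passed with the M-named mutants and the others in neither. Adam12 passed in both. Of all 24188 genes 7438 passed with all mutants, 3583 with the A8-named and 725 with the M-named mutants alone. Grb10, an adaptor that dampens receptor signalling, was lower in injured Adam8EQ than in injured wild-type discs, at 36.4 to 57.6 TPM against 67.1 to 84.9 TPM (-0.67 ± 0.12, limma adjusted p = 0.0277). That call was lost under 10 of its alternatives, among them without each of 3 wild-type and 3 Adam8EQ injured mice. In intact discs Grb10 was also lower in Adam8EQ mice, at 55.4 to 71.5 TPM against 75.2 to 84.5 TPM in wild type, and did not pass. Grb10 was also among the 5 genes of this list that fell with injury in Adam8EQ discs, from a mean of 64.2 to 46.5 TPM.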

How the data were processed

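The deposited table gives TPM for 49315 genes in 16 disc libraries; the authors made these values from rRNA-depleted libraries, per the labels' protocols. The submitters' processing notes name bcl2fastq 2.20 and the build GRCm38; the aligner, counter and annotation are not given in the sources used here. A label calls the molecule polyA RNA, which differs from the protocol.

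Of the identifiers, 99.3% were found in GENCODE M21. TPM times exon length gave an approximate read number per gene (94.1% to 94.9% of values under 20 reads came within 0.05 of a whole number), used for depth and as an added alternative. TPM is a share of each library, so a change in a few abundant genes moves all others, and the number of mice limits the precision.

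Groups came from the titles. The 24188 genes that reached 1 TPM in 3 or more libraries entered the test, on log2(TPM + 1) with limma 3.58.1 in R 4.3.3 (lmFit, eBayes with a mean-variance trend, all 16 libraries, a mean per group), with Benjamini-Hochberg adjustment over all genes tested in each of 5 comparisons and a threshold of 0.05; the procedure was tested on simulated data. SEs are the ordinary ones of the fit and intervals are moderated 95% intervals. The 9 members and all lists were chosen with earlier results of these data known. Of each IGF system list at most the 4 called genes with the largest change per comparison were named, and for each called member the 2 genes closest in profile. The fall of Grb10 with injury in Adam8EQ mice is given beyond that limit. Alternatives were the pseudocount, the filter, scaling, the trend, the samples fitted, library names, a replicate block, a skeletal muscle term, leaving out each mouse, and limma-voom on the inferred reads. Tables were made with Python 3.11.15, pandas 2.3.3 and numpy 2.4.6.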

Additional observations from a re-analysis of the deposited data

Results flagged for a closer look

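In 26 sets of TPM values, each a member in a group of 4 or 5 mice, the highest and the lowest mouse were compared with the rest. Of these, 3 stood apart. Chance gives about 1 in 20 only for normally spread values. TPM values can be skewed and the log2(TPM + 1) scale was not used here, so that rate need not hold. Igf1 in wild-type injured mouse 3 was 65.0 TPM, against 1.94 to 10.5 TPM in the other 3. Igfbp3 in intact Adam8EQ mouse 3 was 1.32 TPM, or 14 reads, against 0.101 to 0.297 TPM. Igfbp7 in injured Adam8EQ mouse 2 was 818 TPM, against 1452 to 1676 TPM, and that library had the highest macrophage marker sum, 7406 TPM.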

How the results depend on the processing

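Of 1126 values of 41 single-gene changes under alternatives, 1066 kept their direction and side of the threshold, 44 lost a call, 8 gained one and 8 changed sign. Part of this was fixed in advance. Leaving out a mouse of a group not compared, or fitting only the groups compared, leaves the change as it was and alters only its p. Changes far from the threshold also stay on their side easily, so the 1066 do not measure stability. The changes of sign were those of Igfbp4 in wild type (-0.57 with the skeletal muscle term and -0.59 to 0.58 over single mice left out, -0.02 without intact mouse 1), of Igf1r with the M-named mutants (0.11), of Igfbp4 (0.61) and Igfbp5 (0.36) with the A8-named mutants, and of the Igfbp3 interaction (-0.088 with the M-named mutants, and -0.047 to 1.25 over single mice left out, the lowest without wild-type injured mouse 1). The cause was not tested. The number of members called with injury in wild type ran from 0 to 1 over single mice left out (Igf1 without injured mouse 1, 2.76, adjusted p = 0.0377). In Adam8EQ mice it ran from 1 to 2, and was 0 with the M-named mutants. Between genotypes in injured discs it ran from 0 to 1, and was 1 by limma-voom, which was added after seeing the data. Of the other IGF system genes, with injury in wild type 0 to 2 passed over single mice left out (2 without injured mouse 1). With only the groups compared, the muscle term or limma-voom 0 passed. Without injured mouse 1, 452 of all 24188 genes passed, against 28. With injury in Adam8EQ mice 11 other IGF system genes passed with the A8-named and 2 with the M-named mutants, against 17. Of all genes 3583 and 725 passed there, against 7438. Between genotypes in injured discs 0 to 6 of the other IGF system genes passed over single mice left out (6 without wild-type injured mouse 3). Without that mouse 2253 of all genes passed, against 222. Of the other IGF system genes 0 passed with only the groups compared or the A8-named mutants. With a mean of at least 5 TPM, median-of-ratios scaling, the muscle term or limma-voom 2 passed. With the replicate number as a block, 1 member passed with injury in Adam8EQ mice, since Igfbp3 had 2.46 ± 0.99 (adjusted p = 0.0589), and 0 other IGF system genes with injury in wild type and 0 between genotypes in injured discs. The numbers do not pair the mice: over 21 same-numbered pairs the correlation of deviations ran from -0.217 to 0.151, and 1 was over 0.1. By limma-voom Igfbp3 had 4.29 ± 1.96 (adjusted p = 0.0668) and Igfbp7 -0.57 ± 0.21 (adjusted p = 0.0357). The differences between genotypes and in the injury changes that are printed singly were chosen after the values were seen; the other 15 reached at most 0.61 in size, all 15 changed sign under at least 1 alternative, 3 of them under a scaling one, and 0 passed under any. Counts of 0 to 14 reads limit Igfbp3 in intact discs, and single reads limit Igfbp2.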
